A study of Mus musculus with 2 samples.

Results

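The genes described here write, keep and remove DNA methylation: the methyltransferase genes Dnmt1, Dnmt3a and Dnmt3b, the cofactor genes Dnmt3l and Uhrf1, and the oxidase genes Tet1, Tet2 and Tet3. They were chosen by name, as every probe set whose only gene symbol in the platform annotation is one of these. That gave 20 probe sets for 8 genes, of 34945 probe sets for 18193 genes in all. On an Affymetrix array the oligonucleotides of a probe set are summarised into 1 signal. The series holds 1 array of mouse embryonic stem (ES) cells labelled as constitutive Eed knockout (Eed KO) and 1 array of ES cells labelled as its control. The labels used here do not give the disrupted part of Eed, the parent line, the number of clones or whether feeder cells were present. The Eed protein belongs to the core of PRC2, the Polycomb complex that methylates histone H3 at lysine 27. With 1 array in each group no test between the groups can be made, and each difference below is one between 2 arrays.

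In mammals Dnmt3a and Dnmt3b place methyl groups on cytosines of CpG dinucleotides that carried none, with Dnmt3l as a catalytically inactive partner that stimulates them. Dnmt1 copies the pattern onto the new strand at replication, brought there by Uhrf1, which binds hemimethylated CpG. Tet enzymes oxidise 5-methylcytosine, which opens the way to its removal. In mouse ES cells the levels of these genes are known to shift between the naive state and the primed, post-implantation state, with Dnmt3a and Dnmt3b higher in the primed one.

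Between the 2 arrays the clearest differences lay in the de novo enzymes. Dnmt3a read 271.6 in Eed KO cells against 3052 in control cells, and Dnmt3b read 4984 against 10849. Dnmt3l, their cofactor, differed little, at 10478 in Eed KO and 9459 in control cells. Dnmt1, Uhrf1 and Tet1 were lower in Eed KO by less than 2-fold, Tet2 was higher by less than 2-fold, and Tet3 was not above background on either array. In bulk RNA such as this, fewer cells of a type and less RNA per cell cannot be told apart.

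A signal was taken as measured where it lay above a floor of 61.3 on at least 1 array, the 40th percentile of all signals, and signals under the floor were raised to it before ratios were taken. Of several probe sets the one brightest in mean log2 signal stood for the gene, which was counted as different at a ratio of at least 2-fold. Of the 8 genes 7 were measured, each of them above the floor on both arrays, and of their 20 probe sets 19 were. At least 2-fold lower in Eed KO were 2 of the 7 genes, and 0 were at least 2-fold higher. Over all 13794 measured genes 3.27% were at least 2-fold lower and 10.8% at least 2-fold higher. By probe set, 5 of the 19 were at least 2-fold lower, and 0 at least 2-fold higher, where 3.47% and 9.8% of the 25167 measured probe sets with 1 gene symbol were. The median log2 ratio of the 7 genes, Eed KO over control, was -0.44, and that of all measured genes was 0.12. Signals of different probe sets depend on their oligonucleotides, so the genes' levels were not ranked against each other.

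The spread of a log2 ratio could be estimated only from genes with several probe sets. Errors written after ± are 1 SD of a single probe set's log2 ratio, estimated from pairs of probe sets of 613 to 1191 genes of like signal. This SD was 0.49 among the dimmest pairs (815 genes) and 0.18 among the brightest (687 genes). It covers differences between probe sets on the same 2 arrays, not variation between cultures.

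**Figure D1:**
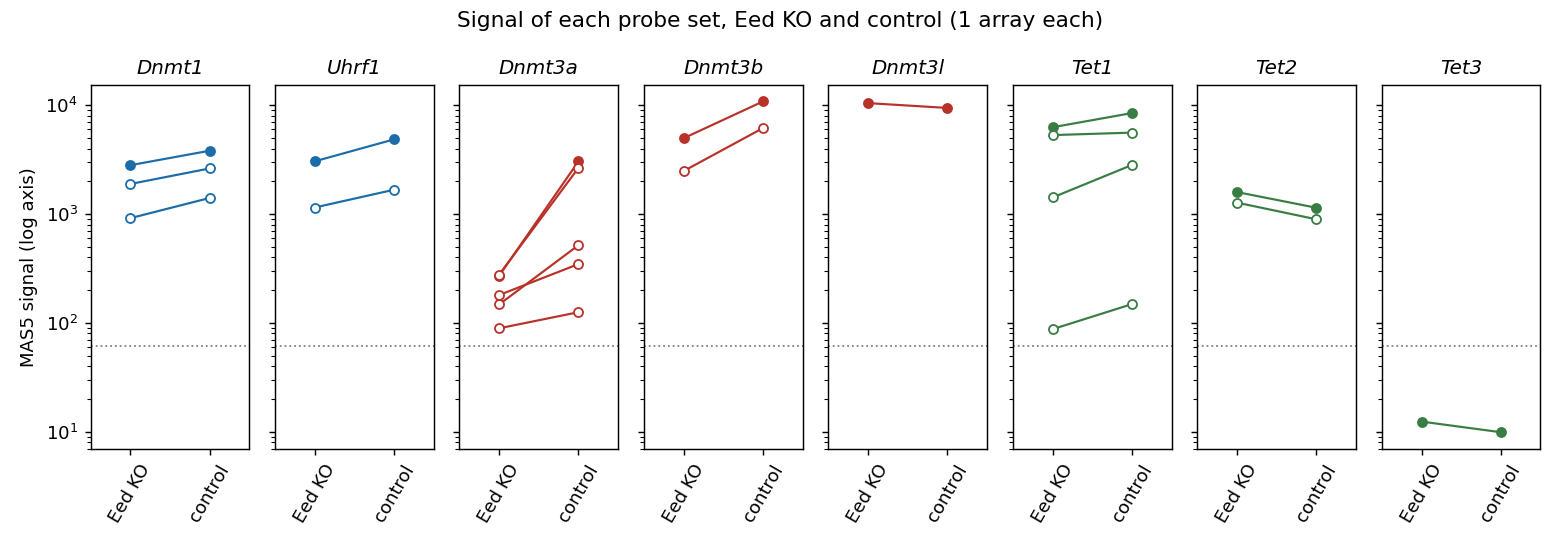
MAS5 signal on a log axis for every probe set of the 8 genes, with the Eed KO array left of the control array in each panel and a line joining the values of 1 probe set. Filled points are the probe set that represents the gene, blue marks maintenance genes, red de novo genes and green Tet genes, and the dotted line is the floor of 61.3. All 5 Dnmt3a lines and both Dnmt3b lines lie lower in Eed KO, the Dnmt3l line is nearly level, and Tet3 lies under the floor.

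The targeted gene and the cell type were looked at first. Eed read 11456 in Eed KO and 10101 in control cells with its main probe set, and 56.7 and 49.0, under the floor on both arrays, with the other. Where these probe sets lie relative to the disruption is not given in the sources used here, so the Eed signal does not check the label. The ES cell markers had high signals: Pou5f1 read 11352 in Eed KO and 12948 in control cells, and the lowest of 13 markers on either array read 2735. In Eed KO 17 of the 23 fibroblast markers measured were past 2-fold upwards and 0 downwards, against 10.8% and 3.27% of all measured genes, with a median log2 ratio of 1.49 (0.12 over all genes). Their summed signal, over 25 markers on the array, was 46596 in Eed KO and 22551 in control cells. These sums lean on a few bright markers, such as Acta2 (10183 in Eed KO and 4361 in control cells) and Fn1 (8070 and 6959). With their brightest probe sets the defining fibroblast markers were above the floor on both arrays. In Eed KO and control cells Col1a1 read 857.1 and 434.3, Col1a2 1782 and 663.4, Col3a1 395.6 and 148.6, and Thy1 1182 and 331.5. The other Col1a1 probe set read 144.8 in Eed KO and 23.8, under the floor, in control cells. A second Col1a2 probe set read 336.8 and 192.2. A further Col1a2 probe set and the other Col3a1 probe set lay under the floor on both arrays. Lum and Fap were under the floor on both. The part of this marker difference in any result below was not tested. The ratio of 3′ to 5′ signal was close on both arrays, at 0.789 in Eed KO and 0.791 in control cells for Gapdh.

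The maintenance pair Dnmt1 and Uhrf1 was lower in Eed KO in all 5 of its probe sets, each by less than 2-fold. Lower in all probe sets were 1539 (23.9%) of the 6448 genes with at least 2 measured probe sets, a share not matched for their number. The Dnmt1 probe set that represents the gene read 2814 in Eed KO and 3826 in control cells, a log2 ratio of -0.44 ± 0.18. Its other probe sets read 1891 against 2629 and 917.6 against 1407, with log2 ratios of -0.47 and -0.62. Both of these carry the suffix _x, which marks oligonucleotides that may bind other transcripts. Uhrf1 read 3056 in Eed KO and 4864 in control cells, a log2 ratio of -0.67 ± 0.18, and 1150 against 1675 with its second probe set (-0.54). The 2 genes' log2 ratios differed by 0.23, Dnmt1 minus Uhrf1, which is within the SD of 0.25 for such a difference.

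Genes expressed around S phase, when maintenance methylation takes place, lay in the same range. Of 21 measured replication genes 19 had a ratio below 1, 1 was at least 2-fold lower and 0 higher, and the median log2 ratio was -0.50 against 0.12 over all measured genes. Their log2 ratios spanned -1.25 to 0.06: 12 lay below that of Dnmt1 and 9 above it, and 2 lay below that of Uhrf1. The lowest was Ccne1, the cyclin that drives entry into S phase, at 2823 in Eed KO and 6718 in control cells. Bright genes in general leaned lower on these arrays. Among the 1046 genes, itself included, within 0.5 log2 units of the mean signal of Dnmt1 the median log2 ratio was -0.12, and 267 of them had a lower ratio than Dnmt1. Among 919 genes of a signal like that of Uhrf1 the median was -0.13, and 121 had a lower ratio. With the intensity trend between the arrays removed, the log2 ratios of Dnmt1 and Uhrf1 were -0.35 and -0.57, and 19 of the 21 replication genes were still below 1.

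The promoters of this pair share a feature, which is why they are shown. RefSeq promoter windows of GRCm38.p6, running from 250 bases before to 50 after a listed start, were searched on both strands for the E2F letters TTTGGCGC, TTTCGCGC, TTTCCCGC and TTTGCCGC. E2F factors switch on many S phase genes. All 8 genes had a window, 15 in all, and 2 of the 15 held a match, one of Dnmt1 and one of Uhrf1, against 2.26% of all 32851 windows. Each of the strings searched contains CG, and both matching windows are rich in it, with 33 CpG each, more than 91.4% of all windows. The share with a match among windows of like CpG number was not computed. Capitals mark the matches, of which the Dnmt1 window at chr9:20952574-20952873 (minus strand) has 2 and the Uhrf1 window at chr17:56304063-56304362 (plus strand) has 1. A match in letters is a description and not a binding site.
Dnmt1: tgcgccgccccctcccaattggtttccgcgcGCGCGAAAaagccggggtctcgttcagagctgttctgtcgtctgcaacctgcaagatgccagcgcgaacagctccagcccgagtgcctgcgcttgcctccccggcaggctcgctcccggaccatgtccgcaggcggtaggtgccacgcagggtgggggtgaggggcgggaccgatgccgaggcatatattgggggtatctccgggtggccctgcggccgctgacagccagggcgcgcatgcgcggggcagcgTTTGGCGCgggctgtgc
Uhrf1: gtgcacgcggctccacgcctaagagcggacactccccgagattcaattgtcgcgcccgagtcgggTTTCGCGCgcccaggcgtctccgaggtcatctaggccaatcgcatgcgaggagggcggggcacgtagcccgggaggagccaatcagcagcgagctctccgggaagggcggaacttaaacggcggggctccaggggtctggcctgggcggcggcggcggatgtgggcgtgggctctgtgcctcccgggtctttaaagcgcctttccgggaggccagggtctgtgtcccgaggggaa

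Dnmt3a, which with Dnmt3b sets up methylation in the early embryo, had the lowest ratio of the 8 genes. Its brightest probe set read 271.6 in Eed KO and 3052 in control cells, 8.90% of the control signal, a log2 ratio of -3.49 ± 0.25. The second read 277.8 against 2663 (-3.26 ± 0.25) and the third 147.9 against 518.3 (-1.81 ± 0.33). The remaining probe sets, at lower control signals, read 180.5 against 347.5 (-0.95 ± 0.41) and 89.3 against 125.5 (-0.49 ± 0.49). All 5 were lower in Eed KO and 3 were at least 2-fold lower, and the size of the difference varied with the probe set by more than the error of any one. As the mean over the 5 probe sets the log2 ratio was -2.00, with an SD of 1.35 between them. The platform annotation gives all 5 the same target accession, and their places along the transcript are not given in the sources used here. Whether they are independent views of different parts of the gene therefore cannot be told.

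Set among all genes, Dnmt3a stood near the end of the distribution with its brightest probe set, which also had the lowest ratio of its 5. Its rank with the other probe sets was not computed. Of 11815 genes above the floor on both arrays 3 had a lower ratio than that brightest probe set. None of the other 2207 genes within 0.5 log2 units of its mean signal did, and their median log2 ratio was 0.05. The 5 genes whose log2 ratio was nearest to that of Dnmt3a over these 2 arrays were Dpys, a pyrimidine-degrading enzyme gene (-3.37), Trh, which encodes thyrotropin-releasing hormone (-3.24), the neurofilament gene Ina (-3.17), the peptide hormone gene Apela (-3.14) and Erdr1 (-3.11). With 2 arrays such likeness is a similar ratio and no more.

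Dnmt3b was lower in Eed KO in both of its probe sets. They read 4984 against 10849, a log2 ratio of -1.12 ± 0.18, and 2487 against 6178, a log2 ratio of -1.31 ± 0.18. Both share 1 target accession. Of 11815 genes above the floor on both arrays 277 (2.34%) had a lower ratio than Dnmt3b, and of the 473 genes within 0.5 log2 units of its mean signal, itself included, 3 did. Of 6448 genes with at least 2 measured probe sets, 66 (1.02%) were at least 2-fold lower in all of them, as Dnmt3b was. This share too is not matched for the number of probe sets. Dnmt3b just missed the 2-fold size after quantile normalization, at a log2 ratio of -0.999, and met it under the 4 other scalings tried.

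Dnmt3l, which has no catalytic activity of its own and stimulates Dnmt3a and Dnmt3b, read 10478 in Eed KO and 9459 in control cells, a log2 ratio of 0.15 ± 0.18. Its single probe set, with the suffix _s, may bind more than 1 transcript. The sign depended on the scaling, with -0.16 when both arrays were given the same median and 0.28 after quantile normalization. Relative to the median of all measured genes the log2 ratio of Dnmt3l was 0.02 with the deposited scaling. Among the 338 genes of like signal, itself included, the median was -0.15, with 271 lower than Dnmt3l and 66 higher.

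The 2 enzymes and their cofactor can also be set against each other within the arrays, where any constant factor between arrays drops out. The log2 ratio of Dnmt3a differed from that of Dnmt3l by -3.64 ± 0.30, and that of Dnmt3b by -1.27 ± 0.25. Both differences are larger than the SD between probe sets. Over all probe set pairs the difference ranged from -3.64 to -0.64 for Dnmt3a and from -1.46 to -1.27 for Dnmt3b, below 0 in 5 of 5 and 2 of 2 pairs. Dnmt3a and Dnmt3b differed by -2.37 ± 0.30 with their brightest probe sets, but in 4 of the 10 pairs of probe sets the Dnmt3a ratio was the higher one, so the order of these 2 depends on the probe set. Dnmt3b was also below Dnmt1, by a difference of -0.68 ± 0.25 and in all 6 pairs.

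**Figure D2:**
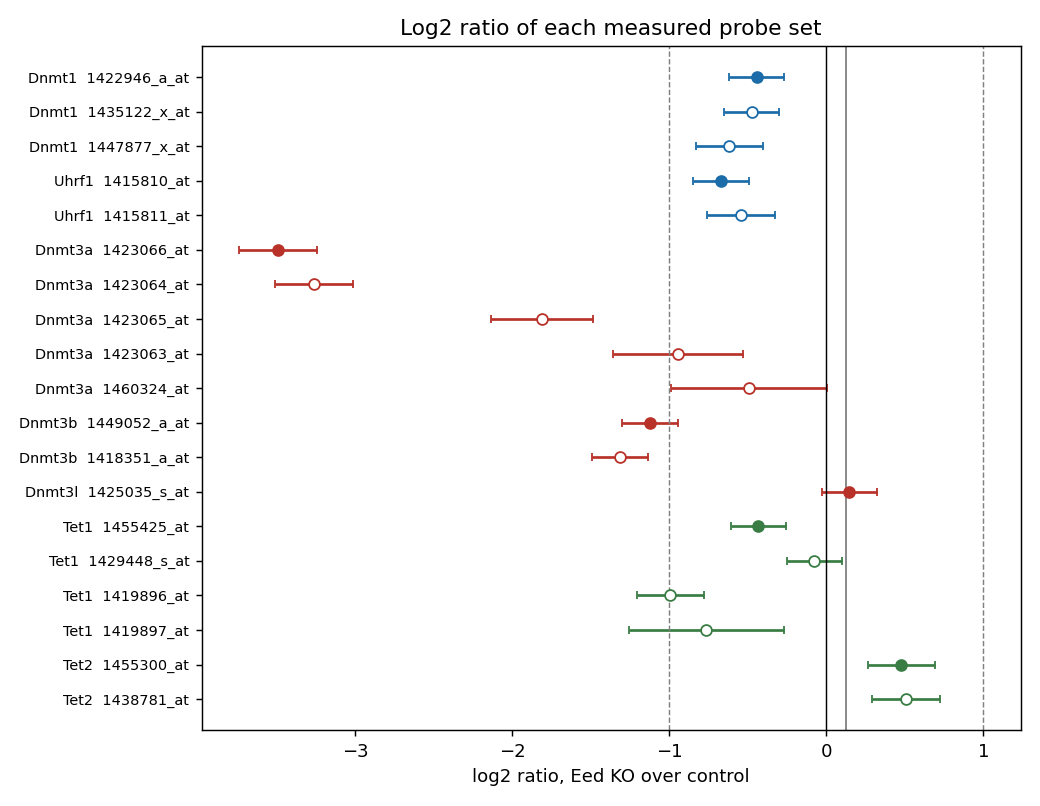
Log2 ratio of Eed KO over control for the 19 measured probe sets, with bars of 1 SD estimated from genes with several probe sets, filled points for the probe set that represents the gene, the 2-fold limits dashed and the median of all measured genes as a grey line. Dnmt3a spans -3.49 to -0.49, both Dnmt3b points lie past the 2-fold limit, and Dnmt3l and Tet2 are the genes with all points above 0.

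The promoter windows of the de novo genes are shown because Dnmt3a and Dnmt3b were both lower while Dnmt3l was not. Capitals mark every CG, the dinucleotide that these enzymes methylate. The first listed Dnmt3a window (chr12:3806730-3807029, plus strand) holds 46 CpG, more than 98.4% of all windows. The most downstream Dnmt3a start listed (chr12:3891494-3891793, plus strand) holds 18. In mouse ES cells the main Dnmt3a product is known to be a shorter isoform from an internal promoter. The Dnmt3b window (chr2:153649199-153649498, plus strand) holds 30 CpG, more than 88.3% of windows. The 3 Dnmt3l windows hold 6, 4 and 3 CpG, under the median of 7 over all windows, and the first of them (chr10:78042037-78042336, plus strand) is shown. The Tet2 window holds 57 CpG, the most of the 15, and Tet2 was higher in Eed KO. Whether CpG number goes with the ratios was not tested. No mark or binding was measured at these windows.
Dnmt3a, first start: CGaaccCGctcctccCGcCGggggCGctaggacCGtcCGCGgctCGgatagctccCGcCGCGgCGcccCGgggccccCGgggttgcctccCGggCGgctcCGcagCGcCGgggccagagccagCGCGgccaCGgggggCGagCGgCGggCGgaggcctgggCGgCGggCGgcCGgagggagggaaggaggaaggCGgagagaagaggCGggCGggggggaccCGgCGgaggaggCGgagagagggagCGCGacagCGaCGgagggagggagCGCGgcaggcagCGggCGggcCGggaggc
Dnmt3a, most downstream start: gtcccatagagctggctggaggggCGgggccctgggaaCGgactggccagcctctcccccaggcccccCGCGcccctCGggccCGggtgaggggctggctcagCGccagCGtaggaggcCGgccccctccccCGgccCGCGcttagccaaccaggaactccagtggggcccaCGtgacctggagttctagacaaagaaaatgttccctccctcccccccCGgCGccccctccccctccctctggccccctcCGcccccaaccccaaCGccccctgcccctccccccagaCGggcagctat
Dnmt3b: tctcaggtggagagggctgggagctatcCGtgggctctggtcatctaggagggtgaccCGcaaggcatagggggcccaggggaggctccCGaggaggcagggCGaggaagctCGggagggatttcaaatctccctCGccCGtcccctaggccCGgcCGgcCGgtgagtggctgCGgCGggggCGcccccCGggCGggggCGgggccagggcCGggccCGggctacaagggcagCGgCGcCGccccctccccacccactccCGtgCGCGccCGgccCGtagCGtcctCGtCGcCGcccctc
Dnmt3l: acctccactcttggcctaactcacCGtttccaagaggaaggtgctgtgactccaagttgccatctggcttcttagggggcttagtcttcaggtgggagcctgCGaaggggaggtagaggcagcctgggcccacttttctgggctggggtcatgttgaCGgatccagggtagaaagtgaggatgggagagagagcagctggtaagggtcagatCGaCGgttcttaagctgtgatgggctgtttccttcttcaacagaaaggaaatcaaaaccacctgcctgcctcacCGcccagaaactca

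The measured Tet genes, which act against the methyltransferases, had ratios on different sides of 1, each within 2-fold. Tet1, the main Tet gene of ES cells together with Tet2, read 6288 in Eed KO and 8485 in control cells with its brightest probe set, a log2 ratio of -0.43 ± 0.18. Its other probe sets read 5326 against 5612 (-0.08 ± 0.18), 1422 against 2828 (-0.99 ± 0.22) and 87.6 against 148.8 (-0.76 ± 0.49). All 4 were lower in Eed KO, as all were for 23.9% of genes with at least 2 measured probe sets. That share is not matched for the number of probe sets. None of the 4 reached 2-fold as deposited. Of 11815 genes above the floor on both arrays 2013 (17.0%) had a lower ratio than Tet1. Among the 480 genes of like signal, itself included, 119 did. The probe set nearest to no change may bind other transcripts (_s).

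Tet2 read 1595 in Eed KO and 1144 in control cells, a log2 ratio of 0.48 ± 0.22, and 1275 against 896.5 with its second probe set (0.51 ± 0.22). The 2 probe sets have different target accessions. Of 11815 genes above the floor on both arrays 3083 had a higher ratio than Tet2, as did 355 of the 1966 genes of like signal, itself included. The ratio of Tet2 stayed above 1 in all alternatives, between 0.17 (same median) and 0.50 on the log2 scale. The log2 ratio of Tet1 was below that of Tet2 by a difference of -0.91 ± 0.28, in all 8 pairs of probe sets. Tet3, the Tet gene known for its role in the egg and zygote, read 12.4 in Eed KO and 9.9 in control cells with its single probe set, under the floor on both arrays, so no ratio is given.

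**Figure D3:**
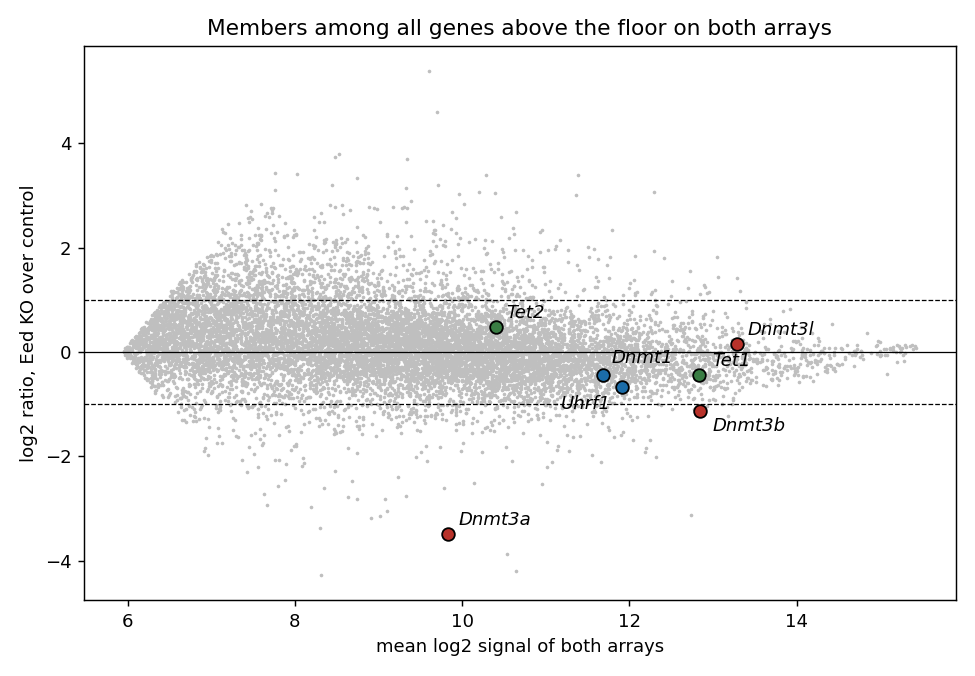
Log2 ratio of Eed KO over control against mean log2 signal for the 11815 genes above the floor on both arrays (grey points), with the 7 measured genes marked (blue maintenance, red de novo, green Tet) and dashed lines at 2-fold. Dnmt3a, at -3.49 with its brightest probe set, lies below all genes of like signal, and Dnmt3b is the other labelled gene past the 2-fold line.

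Partners that bring the methyltransferases to DNA or to histones were mostly lower in Eed KO by a small amount. Of 26 measured, 23 had a ratio below 1, 2 were at least 2-fold lower and 0 higher, where 3.27% of all genes were lower and 10.8% higher. The median log2 ratio was -0.56, against 0.12 over all genes, whose 25th percentile was -0.25, and -0.29 as means over probe sets. Bright genes in general leaned lower on these arrays. With the intensity trend removed the medians were -0.45 for the partners and 0.04 over all genes. The 2 lower genes were Cdca7, which works with the remodeler Hells in maintenance methylation, at 1234 in Eed KO and 2988 in control cells (-1.28), and Ehmt2, the H3K9 methyltransferase G9a, at 2062 and 4568 (-1.15). The other measured probe set of each was lower too, with log2 ratios of -1.17 and -1.65. Hells itself read 6002 and 8476 (-0.50, and -0.15 and -0.19 with its other probe sets). Dppa3, which is known to keep Uhrf1 away from chromatin, read 1346 in Eed KO and 2680 in control cells, a log2 ratio of -0.99. Under every scaling at least 23 of the 26 were below 1, and as means over probe sets 22 were. The count at 2-fold depended on the scaling, with 9 lower when the arrays had the same median. Pcna is also on the replication list.

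Readers and removal enzymes lay on both sides of 1. Of 22 measured genes of demethylation and base excision repair, 9 were above 1 and 13 below, and with equal medians 5 and 17. As deposited 0 were at least 2-fold lower (3.27% of all genes) and 1 higher (10.8% of all genes), the deaminase family gene Apobec2 (857.1 in Eed KO and 265.6 in control cells, log2 ratio 1.69). Gadd45a, a DNA damage response gene named after its values were seen, was close to the threshold at 1241 in Eed KO and 2480 in control cells, and the count of lower genes became 1 with hybridization spikes, 2 with poly-A spikes and 3 with equal medians. Of 11 measured genes on the list of methyl-CpG readers, 8 were above 1 and 3 below. The list includes Mbd family members such as Mbd3 and Mbd6, whose binding to methylated CpG was not examined. The tally of 8 and 3 turned to 4 above and 7 below with equal medians, and was 6 and 5 after quantile normalization, without the intensity trend and with poly-A spikes. Mbd3, a subunit of the NuRD complex, was at least 2-fold lower at 1131 in Eed KO and 2323 in control cells (-1.04, under 2-fold with the intensity trend removed). Zbtb4 was at least 2-fold higher, at 174.7 in Eed KO and 60.4, under the floor, in control cells. Its 2 other measured probe sets had log2 ratios of -0.02 and 1.61.

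Transcription factors known to act on Dnmt and Tet genes in ES cells went both ways. All 20 listed were measured, with 2 past 2-fold upwards in Eed KO and 4 downwards, against 10.8% and 3.27% of all genes. With the pseudocount of 50 the 4 became 2. Prdm14, which is known to repress Dnmt3a, Dnmt3b and Dnmt3l in mouse ES cells, read 1294 in Eed KO and 277.2 in control cells, a log2 ratio of 2.22 from its single probe set. Klf4, a factor of the naive state, read 9409 against 3639 (1.37). Pou3f1, a factor of the primed state, read 247.9 in Eed KO and 1678 in control cells (-2.76), and Mycn read 2396 against 9079 (-1.92, with its other probe sets at -2.12 and -0.08). Nanog read 14393 in Eed KO and 8007 in control cells, a log2 ratio of 0.85. The other lower ones, Otx2 and Myc, were named after their values were seen, with log2 ratios of -1.03 and -1.05.

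Germline genes whose promoters are known to be silenced by DNA methylation were higher in the same array. Of 24 measured, 14 were at least 2-fold higher in Eed KO and 0 lower, with a median log2 ratio of 1.44 against 0.12 over all genes, of which 10.8% were at least 2-fold higher and 3.27% lower. Mael, a piRNA pathway gene, read 2394 in Eed KO and 370.6 in control cells. Dazl, a germ cell RNA-binding protein gene, read 773.0 against 137.8, and Sycp1, of the synaptonemal complex, 713.7 against 66.0. The cohesin gene Smc1b read 363.9 in Eed KO and 11.6, under the floor, in control cells, at least 5.94-fold higher. For 6 of the 24 genes the direction was fixed by the floor, which they passed on 1 array only. Ddx4 and Dnd1, named after their values were seen, had log2 ratios of -0.60 and -0.77. Fibroblast markers were higher by a like amount in the same array (median 1.49), and no methylation was measured in these samples.

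**Figure D4:**
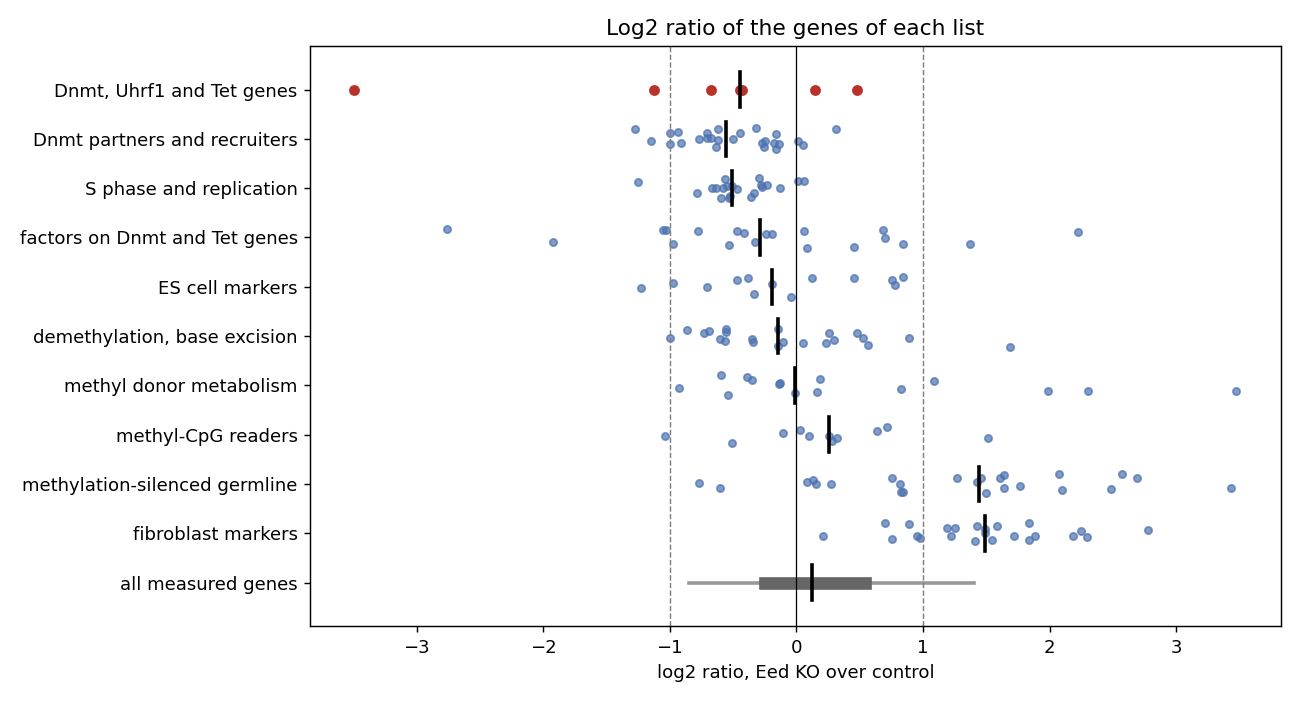
Log2 ratio of Eed KO over control for each measured gene of 9 lists (blue points), for the 7 measured Dnmt, Uhrf1 and Tet genes (red points) and for all measured genes (thick bar from the 25th to the 75th percentile, thin bar from the 5th to the 95th), with black ticks at medians and dashed lines at 2-fold. The partner and replication lists centre at -0.56 and -0.50, and the germline and fibroblast lists at 1.44 and 1.49.

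**Figure D5:**
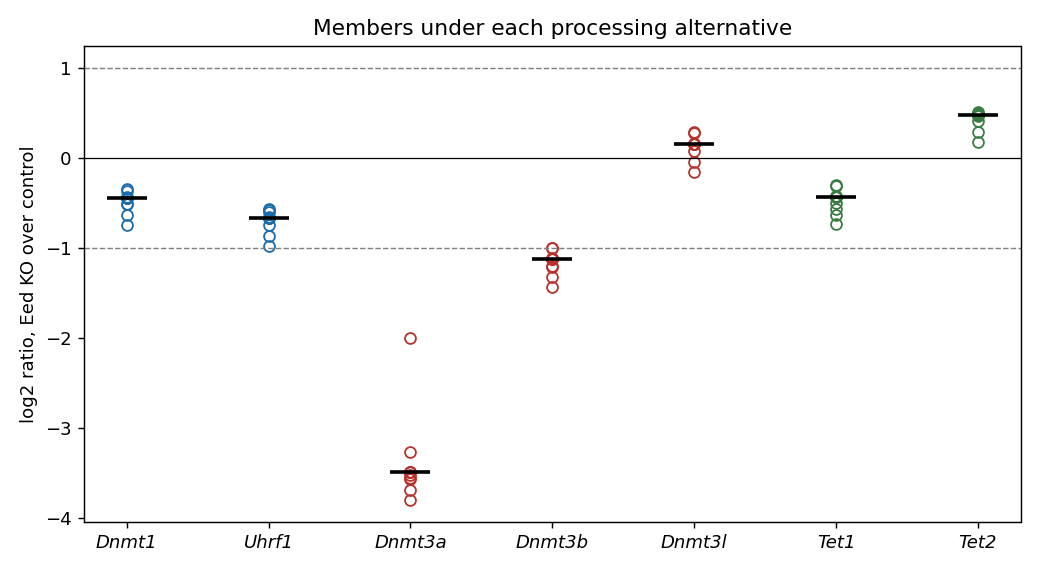
Log2 ratio of Eed KO over control of the 7 measured genes with the deposited scaling (black ticks) and under each alternative scaling, floor or choice of probe sets (open circles), with dashed lines at 2-fold. Dnmt3a lies between -3.80 and -2.00, Dnmt3b between -1.43 and -0.999, and Dnmt3l is the gene whose circles fall on both sides of 0.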

How the data were processed

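Total RNA was labelled as biotinylated cRNA and hybridized to Affymetrix MOE430 2.0 arrays, 1 Eed KO and 1 control, per the labels' protocols. The deposited values are linear intensities, 1 per probe set and array, computed with MAS5 per the submitters' processing notes (version not given there). They were scaled when deposited: the mean without the lowest and highest 2% of 45101 probe sets was 500.0 on both arrays. No detection call and no genome build enter them.

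Groups came from the sample titles. Of the probe sets 34945 had 1 gene symbol, 932 several, 9160 none, and 64 were controls. RefSeq gene IDs (GRCm38.p6) matched 34741 and changed 0 symbols. Python 3.11.15 with pandas 2.3.3, numpy 2.4.6 and statsmodels 0.14.6 was used. No p-value can be computed with 1 array per group, and precision is limited by that number of arrays.

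The genes, the 9 lists (180 of 194 names had a probe set with 1 symbol) and the rule for named genes were chosen with earlier results of these data known. The rule named all 8 genes, Eed, Prdm14, Nanog, Dppa3, Hells and Tdg (not analysed here), up to 4 of the most different genes per list among those at least 2-fold different, and the 5 genes nearest to Dnmt3a in ratio. Named fibroblast genes beyond the defining markers were Prrx1, Pdgfrb, Dcn and Twist2, with log2 ratios of 2.77, 2.30, 2.25 and 2.19. The ES marker Dppa4 had -1.22. The 12 alternatives were quantile normalization, equal medians, removal of a lowess trend (span 0.3), scaling on hybridization or poly-A spikes, a floor at the 25th or at the 60th percentile, a pseudocount of 50, the mean over probe sets, omission of _x_at and _s_at probe sets, and calls at 1.5-fold and 3-fold.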

Additional observations from a re-analysis of the deposited data

How the results depend on the processing

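No paired analysis was possible because each group holds 1 array and no result comes from a test. The count of 2 lower genes (Dnmt3a and Dnmt3b) became 1 after quantile normalization and at 3-fold, and was 2 under the other alternatives except at 1.5-fold (3). The 5 lower probe sets became 8 with equal medians, 10 at 1.5-fold and 3 at 3-fold. Over all genes, 1483 were higher and 451 lower as deposited, 1067 and 583 after quantile normalization, 1109 and 566 without the intensity trend, 1303 and 549 with hybridization spikes, 1039 and 766 with poly-A spikes, and 873 and 1034 with equal medians. They were 2244 and 684 with a lower floor (25th percentile), 806 and 334 with a higher one (60th percentile), 3210 and 1413 at 1.5-fold, and 487 and 102 at 3-fold. The median log2 ratio of all genes moved from 0.12 as deposited to -0.16 with equal medians, -0.06 with poly-A spikes and 0.02 after quantile normalization. Relative to that median, log2 ratios over the alternatives ranged from -3.64 to -2.13 for Dnmt3a, -1.35 to -1.02 for Dnmt3b, -0.65 to -0.38 for Dnmt1, -0.82 to -0.59 for Uhrf1, -0.70 to -0.32 for Tet1 and 0.33 to 0.47 for Tet2. Dnmt3l ranged from -0.0037 to 0.27 and has no value without _s_at probe sets. With that higher floor Zbtb4 had a log2 ratio of 0.05, Smc1b of 1.11 and Sycp1 of 2.09. Partners at least 2-fold lower numbered 2 as deposited and 4 to 9 under the scaling alternatives.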

Other observations

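Genes of methyl donor metabolism, among them enzymes that use or clear the methyl donor, lay on both sides of 1, with 7 above and 8 below. Of 15 measured 4 were at least 2-fold higher in Eed KO and 0 lower, against 10.8% and 3.27% of all genes, with a median log2 ratio of -0.01. At 1.5-fold 5 were higher and 2 lower. The count of lower genes was 1 with the 25th percentile floor, with the pseudocount and under every other scaling tried. The gene counted was Gnmt with that floor and with the pseudocount, and Tyms under the other scalings. Both were named after their values were seen. Gnmt, glycine N-methyltransferase, read 9.4, under the floor, in Eed KO and 89.2 in control cells (at least 1.46-fold lower). Tyms read 114.8 in Eed KO and 218.8 in control cells (-0.93, and 0.03 with its other measured probe set). Ahcy, which clears the methyltransferase product S-adenosylhomocysteine, read 10196 in Eed KO and 11166 in control cells. The higher ones were Shmt2, the mitochondrial serine hydroxymethyltransferase, at 6267 in Eed KO and 2951 in control cells (log2 ratio 1.09, and 0.78 with equal medians), and 3 genes under the floor in control cells. Bhmt, which remethylates homocysteine from betaine, read 682.1 in Eed KO and 38.8 in control cells (at least 11.1-fold higher), Bhmt2 243.1 and 33.0 (at least 3.97-fold), and Nnmt, nicotinamide N-methyltransferase, 303.2 and 18.5 (at least 4.95-fold). A higher floor, at the 60th percentile, gave Bhmt a log2 ratio of 2.02, Bhmt2 of 0.53 and Nnmt of 0.85.

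The nearest measured protein-coding genes along the chromosome, looked up after the values of Dnmt3a and Dnmt3b were seen, are given with their values. Beside Dnmt3a, by the order of genes in GRCm38.p6, lie Dtnb, at 320.9 in Eed KO and 314.6 in control cells (log2 ratio 0.03), and Pomc, at 299.1 and 217.0 (0.46). One gene further on either side, Asxl2, which encodes a partner of the deubiquitinase Bap1, read 459.2 in Eed KO and 1020 in control cells (-1.15), and Efr3b read 48.6, under the floor, and 85.0 (-0.47). Beside Dnmt3b lie Commd7, at 734.2 and 757.3 (-0.04), and Mapre1, at 4567 and 4754 (-0.06). One gene further, Nol4l read 104.9 in Eed KO and 55.1, under the floor, in control cells (0.78), and Sun5 read 93.0 and 55.9, under the floor (0.60).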
